A study of Mus musculus with 7 samples.

Results

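Glucocorticoid receptor sites that were listed only after hormone were not called equally often from one library to the next. Of the 35316 receptor sites of this series, 2146 fell just short of being called every time. They were sites on chromosomes 1 to 19 held by exactly 3 of the 4 chromatin immunoprecipitation sequencing (ChIP-seq) lists made after dexamethasone and by none of the 3 lists made after vehicle. Summits of all 7 lists, the single-base positions of highest signal, had been linked into sites wherever neighbouring summits lay at most 200 bp apart. A list held a site when it had a summit in it. The sites were chosen by the presence or absence of summits in these same lists, so the counts, and the ranks in the lists that hold the sites, are descriptions without a test.

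The cells were fibroblasts of mouse embryos of day 14 to 17, wild type or Klf15-/-, used between passages 4 and 11. They received the synthetic glucocorticoid dexamethasone for 1 h, or ethanol as vehicle. Wild-type cells gave 1 vehicle library, pooled because material was scarce, and 2 dexamethasone libraries, and Klf15-/- cells gave 2 libraries of each treatment. The receptor was precipitated with an in-house antibody. The labels leave unsaid whether replicate libraries stem from different cultures, and the Klf15 deletion was not checked in these files.

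The glucocorticoid receptor (NR3C1) is a nuclear receptor that rests in the cytoplasm bound to chaperones, enters the nucleus on binding hormone, and attaches to DNA as a dimer at imperfect palindromes or beside other factors such as AP-1. In fibroblasts it is known for restraining inflammatory genes and for acting on matrix and circadian genes. KLF15 is a zinc-finger transcription factor whose gene is itself induced by glucocorticoids and which is known to join the receptor in controlling some of its targets. All positions are mm9, counted from 1. Gene names and DNA sequences of the sites are not analysed here.

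The dexamethasone lists held 15628 and 16927 summits in wild type and 19999 and 20169 in Klf15-/- cells, and the vehicle lists held from 7325 to 10034. The read depth behind them is unknown. Each summit carries the authors' score, on an unstated scale, which was used here as a percentile within its own list, from 0 for the weakest to 100 for the strongest. The first Klf15-/- vehicle list stood apart, with 29.4% of its sites in no other list (exact binomial 95% interval 28.3 to 30.5%) against at most 15.3% elsewhere. It also had 419 pairs of neighbouring summits of its own within 200 bp, against at most 4 in any other list. Of its 7325 summits, 6477 were on chromosomes 1 to 19, against 7693 of 8088 in the second Klf15-/- vehicle list. Without that list as a filter the 3-list sites numbered 2243. Intervals on shares throughout are exact (Clopper-Pearson) 95% binomial intervals and cover counting error of sites, which are not replicates.

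Among the 18700 vehicle-free sites that any dexamethasone list held on these chromosomes, 2720 were in all 4 lists, 2146 in 3 (11.5%), 4614 in 2 and 9220 in 1. Of the 11244 sites of a dexamethasone list that also had a vehicle summit, 1795 were in exactly 3 lists (16.0%) and 6122 in all 4. A site of 3 lists was thus less common than one of all 4 in either kind, and vehicle-free sites were mostly held by 1 or 2 lists.

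The list that lacked the site was a wild-type list in 1313 cases (61.2%, 59.1 to 63.3%) and a Klf15-/- list in 833 (38.8%, 36.7 to 40.9%), a ratio of 1.58. Wild-type list 1 was missing at 763 sites, wild-type list 2 at 550, Klf15-/- list 1 at 411 and Klf15-/- list 2 at 422. The genotypes did not overlap in these counts, but neither did their list lengths, and the shortest list was missing most often. With the dexamethasone lists trimmed by score to the length of the shortest, the ratio was 0.972, with 442 and 396 sites missing from the wild-type lists and 435 and 427 from the Klf15-/- lists. How far equal length by itself moves that ratio was not tested. Sites with a vehicle summit gave nearly the same ratio, 1.54, with 653, 435, 390 and 317 sites in the same order of lists. An exact permutation test of 2 lists against 2 cannot go below p = 0.333, and none was made. The vehicle filter bore on the split too: without the wild-type vehicle list, 944 and 670 sites were missing from the wild-type lists and 643 and 606 from the Klf15-/- lists.

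How often a list missed such a site can be read against the sites it could have held. Of the 3483 vehicle-free sites in the other 3 lists, wild-type list 1 lacked 21.9%. Wild-type list 2 lacked 16.8% of 3270, Klf15-/- list 1 lacked 13.1% of 3131 and Klf15-/- list 2 lacked 13.4% of 3142. The Klf15-/- replicates were alike and the wild-type replicates were not, so the spread between the wild-type lists was larger than the gap from wild-type list 2 to either Klf15-/- list. Where the other 3 lists shared a site that also had a vehicle summit, the missing shares were smaller, at 9.64%, 6.63%, 5.99% and 4.92%.

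Whether the remaining list held a site followed its rank in the others. In the band where the lowest of the other 3 percentiles was 20 or less, wild-type list 1 held 57.6% (54.4 to 60.8%) of vehicle-free sites. Wild-type list 2 held 65.2% (62.0 to 68.3%) there, and the Klf15-/- lists held 72.7% (69.5 to 75.7%) and 71.3% (68.1 to 74.3%). Between percentiles 40 and 60 the shares were 85.4%, 91.8%, 93.7% and 93.7%. Above percentile 80 in all of the other 3 lists, 488 of 489, 462 of 462, 452 of 455 and 463 of 466 sites were held. The 0 missing sites of wild-type list 2 do not exclude misses, since the interval of its share held ran from 99.2 to 100%. A ligand-dependent site that was strong in 3 lists was thus almost always found in the fourth, in both genotypes.

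Among low-ranked sites, those with a vehicle summit were found more often than vehicle-free ones. In the band up to percentile 20 the remaining list held 72.5% (69.6 to 75.3%), 78.0% (75.2 to 80.6%), 82.9% (80.3 to 85.2%) and 84.6% (82.2 to 86.9%) of them, in the order wild-type 1 and 2, Klf15-/- 1 and 2. Each of these intervals lay above that of the vehicle-free sites of the same list. Higher up this did not hold throughout. Between percentiles 40 and 60 the intervals overlapped in wild-type list 2 (93.4 to 95.9% with and 89.3 to 93.8% without a vehicle summit) and in Klf15-/- list 1 (93.4 to 95.9% and 91.5 to 95.5%). Between 60 and 80 they were apart in wild-type list 2, at 99.2% (98.6 to 99.6%) against 97.0% (95.2 to 98.3%), and overlapped in the other lists. The order was reversed there in Klf15-/- list 2, at 98.6% with and 99.6% without, and above 80 in wild-type list 2, at 99.8% with and 100% without. The sites within a band are not matched on rank beyond its limits. Vehicle summits also take part in the linkage, so they can join a summit of the remaining list to a site. How often they did was not counted.

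**Figure D1:**
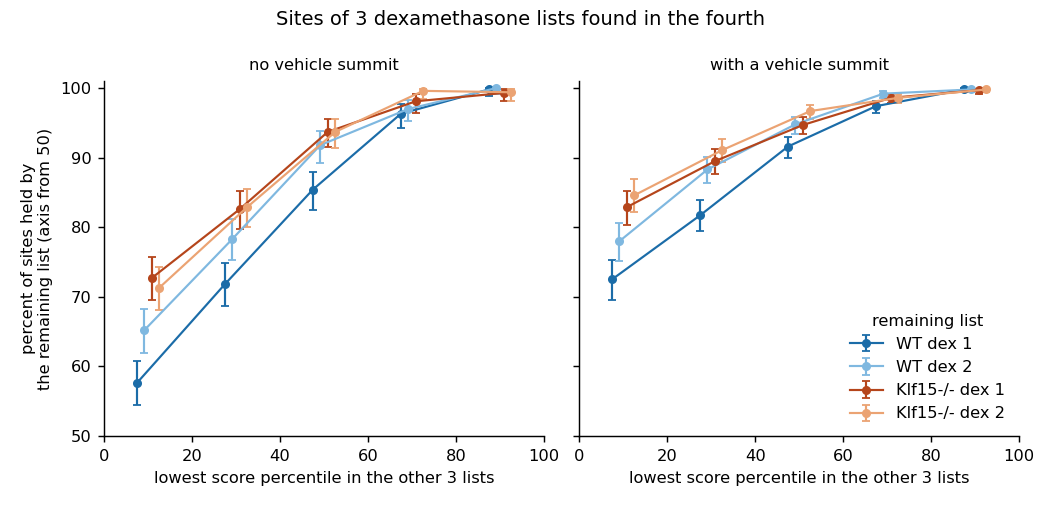
Percent of sites in 3 dexamethasone lists that the remaining list also held (y axis, from 50%), by the lowest score percentile in the other 3 lists (x axis, 5 bands), for sites without (left) and with (right) a vehicle summit; points are single lists and bars are exact 95% binomial intervals. All 8 curves stand at 99.3% or more in the top band. In the lowest band they start between 57.6% and 72.7% on the left and between 72.5% and 84.6% on the right.

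The 3-list sites themselves were weak to middling. The lowest of their 3 percentiles had a median of 17.8, against 40.0 for the lowest of 4 in sites of all 4 lists. In 1190 of 2146 sites (55.5%) some list placed the site at percentile 20 or below, and in 851 (39.7%) no list placed it above 50. At the other end, 124 sites (5.78%) were above percentile 50 in each of their 3 lists and 7 (0.326%) were above 80. The corresponding shares in sites of all 4 lists were 40.0% and 15.6%, over 4 lists. Low rank was not particular to sites of 3 lists. By single list, their median percentiles ran from 24.5 to 44.5. Those of vehicle-free sites of 2 lists ran from 28.1 to 34.1, and those of sites of 1 list from 16.7 to 18.2. These ranks come from the lists that chose the sites and describe them only.

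In every class, the site ranked lower in the replicate of the missing list than in the lists of the other genotype. Sites missing from wild-type list 1 had a median percentile of 28.9 in wild-type list 2, and of 44.4 and 43.7 in the Klf15-/- lists. Those missing from wild-type list 2 had a median of 24.5 in wild-type list 1, and of 41.0 and 44.5 in the Klf15-/- lists. The direction turned with the genotype of the missing list. Sites missing from Klf15-/- list 1 stood at a median of 32.3 in Klf15-/- list 2, and at 38.6 and 40.0 in the wild-type lists. Sites missing from Klf15-/- list 2 stood at 29.6 in Klf15-/- list 1, and at 34.2 and 40.2 in the wild-type lists. The interquartile ranges were wide and overlapped within each class, for example 13.7 to 44.0 in wild-type list 2 against 25.5 to 62.1 in Klf15-/- list 1.

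**Figure D2:**
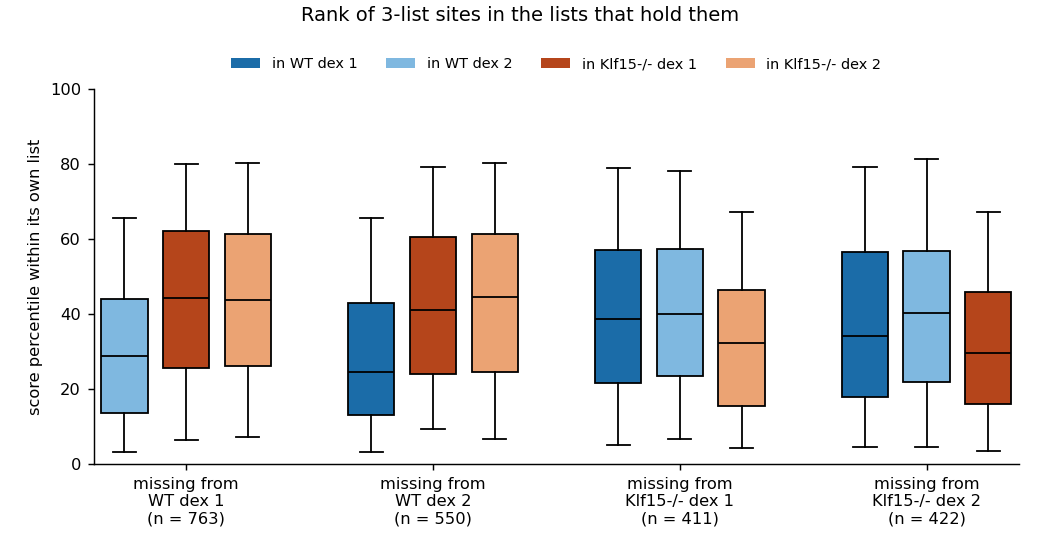
Score percentile within its own list (y axis) of the sites missing from each dexamethasone list (x axis groups), in the 3 lists that hold them (colours); boxes show the median and quartiles over sites and whiskers the 5th and 95th percentiles. In each group the box of the missing list's replicate is the lowest, with medians of 28.9, 24.5, 32.3 and 29.6.

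Taken site by site, the replicate of wild-type list 1 ranked the missing sites lower than the mean of the Klf15-/- lists in 70.6% (67.3 to 73.9%) of 763 cases, with a median difference of -11.8 percentile points. For sites missing from wild-type list 2 it was 72.5% (68.6 to 76.2%) of 550, with a median of -13.6. Among sites missing from Klf15-/- list 1 the replicate ranked lower than the mean of the wild-type lists in 61.8% (56.9 to 66.5%) of 411, with a median of -7.4. For Klf15-/- list 2 it was 60.7% (55.8 to 65.4%) of 422, with a median of -6.4. The same differences in sites of all 4 lists had medians of -1.1 and -3.6 for the wild-type lists and 3.7 and 3.1 for the Klf15-/- lists, closer to 0 in wild type and of the opposite sign in Klf15-/-. Sites of all 4 lists had median percentiles of 60.8 and 62.9 in the wild-type lists and of 66.4 and 66.5 in the longer Klf15-/- lists. The part of list length in these differences was not tested.

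The differences were also compared with those of sites of all 4 lists within bands of the other genotype's mean. That mean is subtracted in the difference, so a fall from band to band follows from the arithmetic, and values are set side by side within a band alone. Within a band the comparison is still tied to the rule. The groups differ in whether the missing list held the site, and ranks of replicates followed each other in sites of all 4 lists. The values are therefore descriptions, and what lies behind them was not tested. Where the mean of the Klf15-/- lists was between percentiles 50 and 75, the median difference was -28.3 for sites missing from wild-type list 1 and -35.2 for those missing from wild-type list 2, against -6.7 and -9.7 in sites of all 4 lists. In the same band of the wild-type mean, it was -25.4 and -25.1 for sites missing from the Klf15-/- lists, against 3.1 and 2.9. Above percentile 75 the groups were small: 50, 31, 23 and 24 sites, with medians of -41.1, -36.8, -33.5 and -48.6. At or below percentile 25 the medians were above 0 in each class, from 6.8 to 11.2, and those of sites of all 4 lists were higher still, from 16.1 to 23.8.

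**Figure D3:**
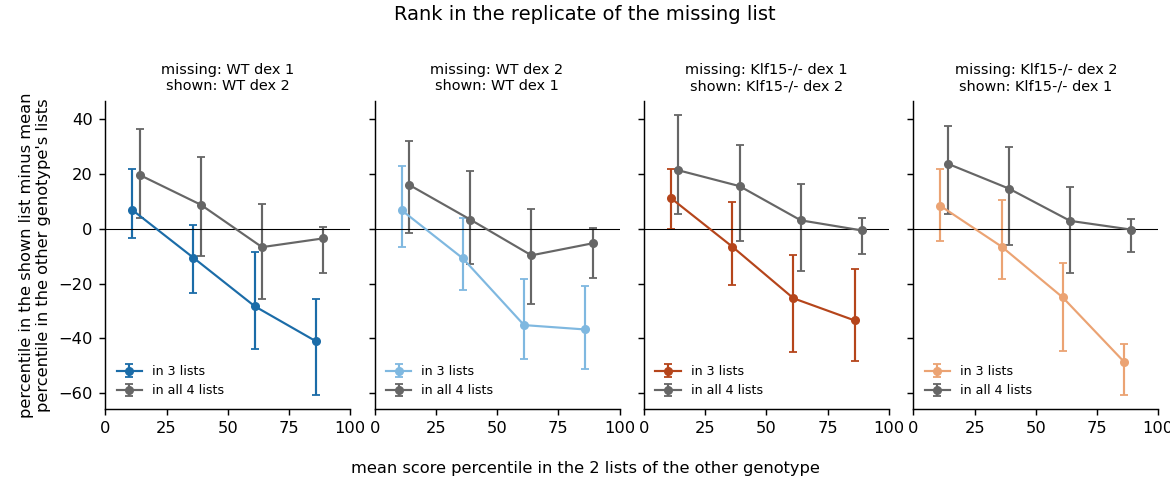
Percentile in the replicate of the missing list minus the mean percentile in the lists of the other genotype (y axis, percentile points), by that mean (x axis, 4 bands), for sites in 3 lists (colour) and in all 4 lists (grey); points are medians over sites and bars the quartiles. In all 4 panels the coloured medians lie below the grey ones in every band, and the fall of both from left to right follows from subtracting the quantity on the x axis.

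Ranks of the 3 lists followed one another within a genotype more than across genotypes. Over the 763 sites missing from wild-type list 1, Spearman's rho between the Klf15-/- lists was 0.44, while wild-type list 2 had 0.16 with each of them. Over the 550 missing from wild-type list 2, rho was 0.49 between the Klf15-/- lists and 0.15 and 0.12 across genotypes. Sites missing from a Klf15-/- list gave 0.41 and 0.38 between the wild-type lists, and 0.08 to 0.15 across genotypes. In the 2720 sites of all 4 lists the same measure was 0.75 and 0.78 within and 0.59 to 0.61 across genotypes. At 3-list sites the pair within a genotype was always that of the genotype with no list missing. Each pair across genotypes held the replicate of the missing list. The class rule and genotype cannot be told apart in these pairs, and only sites of all 4 lists are free of this. These correlations are over sites, which share their libraries, and the choice of 3 lists narrows the range of ranks, so they are descriptions with no test.

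Summit positions were a little less tight than at steadier sites. The median distance between the summits of a pair of lists at a 3-list site lay between 44 and 49 bp over the 12 pairs of lists, and between 34 and 36.5 bp at sites of all 4 lists. Unlike rank, position showed little difference between replicates (44 to 47 bp) and pairs across genotypes (45 to 49 bp). The whole site, from first to last summit, spanned a median of 78 bp, with a range of 2 to 474 bp, and 11 sites held more than 1 summit of some list. Sites of all 4 lists spanned a median of 76.5 bp.

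Some sites had a summit of the missing list not far away. Such a summit lay within 1 kb of 236 of the 2146 sites (11.0%, 9.70 to 12.4%), of which 129 were within 500 bp. A near summit is not a displaced one by itself: by missing list, 26 of 72, 18 of 54, 17 of 55 and 11 of 55 belonged to a separate site that all 4 dexamethasone lists held. For the replicate of the missing list, a further summit outside the site lay within 1 kb of 153 sites (7.13%, 6.08 to 8.30%) and within 500 bp of 45. The replicate already had a summit in the site, so its further summits are no like-for-like baseline for the missing list. Within 10 kb the intervals overlapped, with 41.4% (39.3 to 43.5%) for the missing list and 39.7% (37.7 to 41.9%) for its replicate. The median distance to the missing list was 18.7 kb and 14.6 kb for wild-type lists 1 and 2, and 13 kb and 11.8 kb for Klf15-/- lists 1 and 2, which were longer lists. More than 100 kb separated 119, 57, 41 and 26 sites from the list that lacked them, and the farthest was 925 kb away.

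The linkage limit set the edge of the group. Just inside it, the site on chromosome 19 from 9181296 to 9181529 had a summit of its missing list, wild-type list 2, at 201 bp. Others lay at 202 bp on chromosome 9 (65417682 to 65417720, wild-type list 2) and at 203 bp on chromosome 13 (6058964 to 6058993, wild-type list 1). Just outside, the fourth list joined the site at 200 bp on chromosome 7 (28016759 to 28017113), at 195 bp on chromosome 12 (70657328 to 70657699) and at 194 bp on chromosome 3 (135834666 to 135834931). The nearest vehicle summits of members were at 203, 206 and 208 bp, and the widest gaps that a vehicle summit bridged were 194, 193 and 190 bp.

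Near summits of the missing list were most common at the strongest sites. Where the lowest of the 3 percentiles was 20 or less, 9.58% (7.97 to 11.4%) of 1190 sites had one within 1 kb, and from 20 to 40 it was 9.40% (7.31 to 11.8%) of 681. The share was 15.7% (11.2 to 21.1%) of 223 sites from 40 to 60 and 35.6% (21.9 to 51.2%) of 45 from 60 to 80. Above 80 it was 7 of 7 sites (59.0 to 100%), at 259 to 634 bp. Other summits of the replicate lay within 1 kb of 6.89% in the lowest band, 17.8% of 45 and 3 of 7 sites in the highest bands. For vehicle summits the values were 5.46%, 22.2% and 4 of 7. The top band holds 7 sites and its shares are loose.

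**Figure D4:**
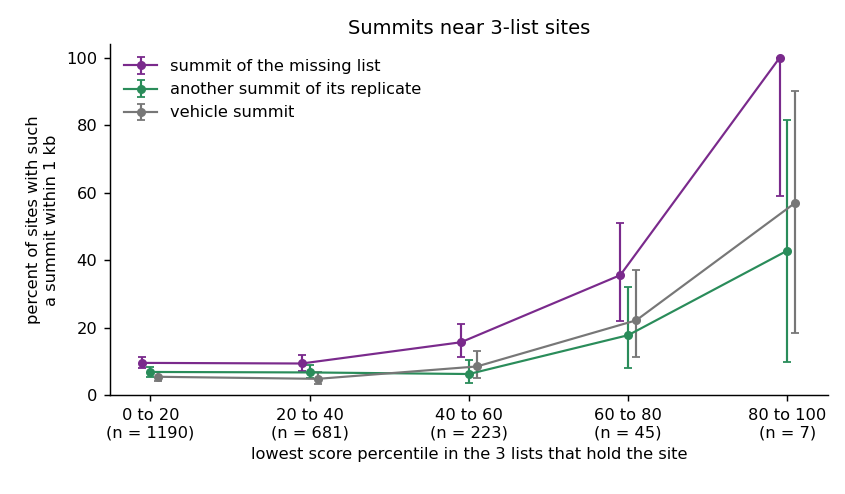
Percent of 3-list sites with a summit within 1 kb (y axis) of the missing list, of its replicate outside the site, or of any vehicle list (colours), by the lowest score percentile in the 3 lists that hold the site (x axis, 5 bands with their numbers of sites); bars are exact 95% binomial intervals. The curve of the missing list goes from 9.58% to 35.6% in the fourth band and to 7 of 7 sites in the last.

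The 7 strongest sites, those above percentile 80 in each of their 3 lists, show the pattern one by one. The site on chromosome 13 from 52988296 to 52988360 stood at percentile 93.7 in wild-type list 2 and at 95.3 and 81.9 in the Klf15-/- lists. Wild-type list 1, which lacked it, had a summit 634 bp away at percentile 98.5, inside a site that all 4 dexamethasone and all 3 vehicle lists held. This was the one site of the 7 that a wild-type list missed.

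Klf15-/- list 1 missed 3 of the 7. On chromosome 9 from 120648442 to 120648460, the percentiles were 90.3 and 84.5 in wild type and 87.6 in Klf15-/- list 2. The missing list had a summit 260 bp away at percentile 90.7, in a site of no other dexamethasone list, and a vehicle summit lay at 212 bp. A site on chromosome 13 from 45723144 to 45723191 stood at 95, 93.6 and 83.8, with the missing list at 521 bp and percentile 90.5, in a separate site of 3 dexamethasone lists, and a vehicle summit at 548 bp. The third, on chromosome 9 from 58122785 to 58122816, stood at 94.5, 82.1 and 86.7, with the missing list at 432 bp and percentile 70.5, in a site of its own. No vehicle summit was within 24.5 kb of it.

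Klf15-/- list 2 missed the other 3. The site on chromosome 5 from 112228715 to 112228753 had the highest lowest rank of all members, with percentiles of 90.0 and 91.4 in wild type and 89.6 in Klf15-/- list 1. The missing list had a summit 541 bp away at percentile 80.2, in a separate site of all 4 dexamethasone lists. On chromosome 11 from 68478842 to 68478876, the percentiles were 90.9, 87.4 and 83.3, and the missing list had a summit at 259 bp and percentile 90.3. That summit belonged to a neighbouring site held by all 3 vehicle lists and by no other dexamethasone list. A site on chromosome 1 from 40490873 to 40490890 stood at 84.8, 81.5 and 95.1, with the missing list at 390 bp and percentile 95.5, in a site of 2 dexamethasone lists. At each of the 7 sites the list without the site thus had a summit of percentile 70.5 or more within 1 kb, and whether it marks the same binding event was not tested.

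Clear gaps appeared one step lower in rank. A site on chromosome 1 from 101997783 to 101997796 stood at percentile 79.1 in wild-type list 2 and at 87.7 and 76.9 in the Klf15-/- lists, and the nearest summit of wild-type list 1 was 638 kb away. On chromosome 7 from 91274660 to 91274747, wild-type list 1 placed the site at 76.6 and the Klf15-/- lists at 87.4 and 87.7, with wild-type list 2 no nearer than 173 kb. The wild-type library that held the site ranked it between the Klf15-/- libraries in the first case and below both in the second.

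Missing Klf15-/- lists had similar cases. A site on chromosome 18 from 40234926 to 40234955 had percentiles of 89.3 and 85.8 in wild type and 73.3 in Klf15-/- list 2, with Klf15-/- list 1 at 233 kb. A site on chromosome 14 from 31892670 to 31892706 stood at 88.8, 80.6 and 73.2, with Klf15-/- list 2 at 105 kb and a vehicle summit at 7.28 kb. The Klf15-/- library that held the site ranked it lowest in both.

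The remaining high-ranked sites missing from a wild-type list were of both kinds. For wild-type list 1 they were on chromosome 3 (54297099 to 54297111, percentiles 75.7, 77.1 and 87.2, missing list at 2.87 kb) and on chromosome 15 (101933073 to 101933108, percentiles 75.7, 81.1 and 83.0, missing list at 1.61 kb). For wild-type list 2 the first was on chromosome 6 (39175995 to 39176101), at 78.7, 88.7 and 86.0, with the missing list at 17.5 kb. The next was on chromosome 15 (80936773 to 80936864), at 76.3, 82.0 and 82.6, with the missing list at 0.278 kb and a vehicle summit at 0.203 kb. The last was on chromosome 17 (42693837 to 42693897), at 73.8, 81.9 and 90.2, with the missing list at 24.0 kb. At each of these 5 sites the wild-type library ranked the site lower than both Klf15-/- libraries.

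In their distance from receptor sites found without ligand, the 3-list sites were close to those of all 4 lists. A vehicle summit lay within 1 kb of 131 of them (6.10%, 5.13 to 7.20%) and within 10 kb of 691 (32.2%, 30.2 to 34.2%), with a median distance of 22.5 kb. Sites of all 4 lists gave 6.10% (5.23 to 7.07%) and 32.6% (30.8 to 34.4%), and sites in 2 lists gave 6.37% (5.68 to 7.12%) and 29.1% (27.8 to 30.4%). By missing list, the share within 10 kb was 28.7% and 33.3% for the wild-type lists and 33.1% and 36.3% for the Klf15-/- lists. The intervals of these shares overlapped between the genotypes, from 25.5 to 32.1% at the lowest and from 31.7 to 41.0% at the highest.

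The sites were spread over all 19 autosomes, from 64 on chromosome 19 to 163 on chromosome 2. On 8 of 19 chromosomes (42.1%) the shares of the classes missing a wild-type list did not overlap those of the classes missing a Klf15-/- list. In a random order, 2 classes fall apart from 2 others, in either direction, with a probability of 0.333. The count is therefore not read as a difference between genotypes. Sites missing a Klf15-/- list took the larger share on chromosomes 1, 8, 10 and 16, and those missing a wild-type list on chromosomes 3, 5, 7 and 9, so neither direction was the more common. The widest gap was on chromosome 10, with 9.12% (7.26 to 11.3%) of the sites missing a Klf15-/- list against 5.71% (4.52 to 7.11%) of those missing a wild-type list, a ratio of 1.60. The 4 classes held 4.98%, 6.73%, 8.52% and 9.72% there, and sites of all 4 lists 7.54%. Chromosome 8 gave 6.96% against 4.65%, a ratio of 1.50.

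Chromosome 7 showed the reverse, with 3.72% (2.54 to 5.24%) of the sites missing a Klf15-/- list against 5.71% (4.52 to 7.11%) of those missing a wild-type list, a ratio of 0.652. On chromosome 9 it was 4.20% against 6.09%, a ratio of 0.690. The intervals for the genotypes overlapped on 18 of 19 chromosomes, chromosome 10 being the exception. The whole lists were spread unequally as well. Of all their summits on these chromosomes, chromosome 10 held 7.90% and 7.58% in the wild-type lists against 6.48% and 6.29% in the Klf15-/- lists. Chromosome 7 held 3.77% and 3.82% against 4.35% and 4.44%. On both, as on chromosomes 5, 8 and 9, the genotype with the smaller list shares had the larger share of missing sites. On chromosome 1 the genotype with the larger list shares had it. On chromosomes 3 and 16 the list shares of the genotypes overlapped. The part of list composition in the split by chromosome was not tested. Sites on a chromosome are not independent of each other.

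**Figure D5:**
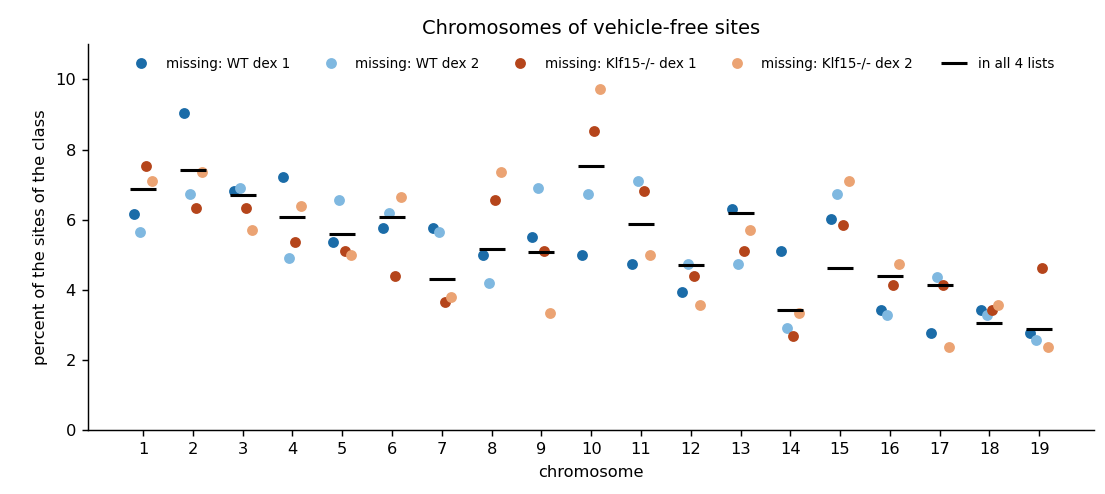
Percent of the vehicle-free sites of each class (y axis) on each autosome (x axis), for the sites missing from each of the 4 dexamethasone lists (coloured points) and for sites of all 4 lists (black bars). On chromosome 10 the points of the Klf15-/- lists, 8.52% and 9.72%, lie above those of the wild-type lists, 4.98% and 6.73%, and on chromosome 7 they lie below.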

How the data were processed

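Receptor ChIP-seq was analysed from 7 deposited lists of peak summits, 1 per library. Per the submitters' processing notes the tools were CASAVA 1.4, Bowtie2 and SAMtools and mm9 was the build. The peak caller is not given in the sources used here, nor are its control and threshold. The score of each summit is the authors' deposited value, from a list called separately in each library. Any part of depth or enrichment in list length was not tested. The score was converted to a percentile within its list, and a site took its highest-scoring summit per list. List minima ran from 3.01 to 3.38.

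Groups came from the sample titles. Sites were formed by single linkage at 200 bp, and distances run from the edge of a site to a summit. The members and lists were chosen with earlier results of these data known. Sites named in the text were, for each missing list, the 4 with the highest percentile in the list where they ranked lowest and up to 2 above percentile 80 that lay farthest from the missing list (1 for wild-type list 1 and 0 for wild-type list 2), and, over all lists, the 3 just inside the linkage limit. No model was fitted. A further 37 sites that met the list rule on chromosome X were left out, with 0 on Y. The supplied gene and promoter tables are of GRCm38 and were not used for positions, names or sequences, so the planned motif and gene results are not analysed here. In simulated lists with 500 planted sites per missing list, 99.6% to 99.8% of the planted number was found. Positions were drawn at random over the chromosomes, no sites of exactly 2 lists were planted, and only the number of sites was compared. The simulation thus does not cover linkage errors at real sites with a summit of the missing list nearby. Alternatives are given in the closing section. Tables were made with pandas 2.3.3 and numpy 2.4.6 in Python 3.11.15, intervals with scipy 1.17.1 and plots with matplotlib 3.10.9.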

Additional observations from a re-analysis of the deposited data

How the results depend on the processing

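Of 125 values recomputed over 16 alternative settings, 81 stayed within their bounds (1.5 times for counts, the exact 95% interval for shares, 1 SD between classes for the median rank) and 44 moved. A result with no test cannot lose a call. With dexamethasone summits above the median score of their list alone, 631 sites remained in exactly 3 lists, with 225, 174, 127 and 105 missing from wild-type lists 1 and 2 and Klf15-/- lists 1 and 2. Recovery by the remaining list was then 82.9%, 86.2%, 89.5% and 91.2%. The median lowest percentile was 58.3, and by construction this setting allows no rank in the lower part of a list. A summit of the missing list lay within 1 kb of 6.02% of sites and a vehicle summit within 1 kb of 8.08%. The trimmed dexamethasone lists left fewer summits that could lie near a site. Without any vehicle filter there were 3941 sites, and 1416, 985, 801 and 739 by missing list. Lists of equal length gave 442 sites missing from wild-type list 1 and a ratio of 0.972. A linkage gap of 100 bp gave a median lowest percentile of 20.2, with 21.1% within 1 kb of the missing list and 10.4% and 35.8% within 1 and 10 kb of a vehicle summit. At 500 bp these shares were 4.59%, 3.19% and 30.1%, since a gap of that size joins near summits by construction. Within 500 and 5000 bp the missing list had a summit at 6.01% and 26.9% of sites.

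Leaving out 1 library at a time gave totals from 2243 to 4430. The highest come from leaving out a dexamethasone list, when the rule becomes exactly 2 of 3 lists. Leaving out a vehicle list gave ratios from 1.29 to 1.77, and 802 to 944, 587 to 670, 424 to 643 and 430 to 606 sites by missing list. Recovery ranged from 77.6% to 81.5%, 82.8% to 86.2%, 86.6% to 87.8% and 86.9% to 87.6%. The median lowest percentile ranged from 17.8 to 18.2, the share within 1 kb of the missing list from 10.7% to 11.5%, and the shares within 1 and 10 kb of a vehicle summit from 4.76% to 5.62% and from 23.5% to 29.9%. With a vehicle list left out, fewer sites are filtered away and fewer vehicle summits remain to measure to. Higher totals and lower shares near a vehicle summit thus follow in part by construction. The cause of the movements was otherwise not tested unless stated. Of the 16 top-ranked named sites, 10 remained at a gap of 500 bp and 8 with no summit of the missing list within 1000 bp. No paired analysis was possible because the results are counts, shares and ranks of sites that come from no test, so no replicate block could enter. Read depth is unknown, so absence of a summit does not show absence of the receptor.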

Other observations

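Sites of 3 lists seldom lay close together. Another such site was within 10 kb of 152 of the 2146 (7.08%, exact 95% interval 6.03 to 8.25%), and a vehicle-free site of all 4 lists was within 10 kb of 199 (9.27%, 8.08 to 10.6%). Sites of all 4 lists had another of their own kind within 10 kb in 345 of 2720 cases (12.7%, 11.5 to 14.0%), and they are more numerous. Chained at 10 kb, the 3-list sites formed 1994 single sites, 73 pairs and 2 runs of 3. The first run was on chromosome 2, from 117423591 to 117433205, and its sites were missing from wild-type list 1, again from wild-type list 1, and from wild-type list 2. The other, on chromosome 9 between 78092465 and 78102550, had sites that were missing from both wild-type lists and from Klf15-/- list 2, 1 site each.

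The summits of the missing list found within 1 kb of a site were of middling rank, with median percentiles of 37.9 and 33.4 in wild-type lists 1 and 2 and of 51.2 and 44.5 in Klf15-/- lists 1 and 2, over 72, 54, 55 and 55 sites. Of these summits, 26, 18, 17 and 11 belonged to a neighbouring site of all 4 dexamethasone lists, and 23, 25, 19 and 18 to a site that no other dexamethasone list held.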
